A study of Mus musculus with 10 samples.

Results

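The genes described here are 10 genes that mark granule and Purkinje neurons, the principal excitatory and inhibitory cells of the cerebellar cortex: Atoh1, Zic1, Zic2, Zic4, Neurod1, Cbln1, Cbln3, Pcp2, Car8 and Calb1. They were taken as every probe set whose symbol in the platform annotation includes one of these names, which gave 23 of the 45037 non-control probe sets of the array, each with a single symbol. The arrays held RNA of the pons, medulla and rostral spinal cord, dissected from 20 µm sections of the frozen central nervous system of C57BL/6 mice aged 1.5 to 2 days. The cerebellum, which lies on top of the pons and medulla, is not among the named regions. The groups were 5 Nkx2.2-/- mice (replicates 11, 12, 22, 29 and 43) and 5 wild-type littermates (replicates 14, 15, 16, 18 and 21), with 1 array for each mouse. Nkx2.2 is a homeodomain transcription factor of ventral neural progenitors and of the oligodendrocyte lineage, and the series asks which transcripts differ in its absence. The labels name the genotype only and give no allele, litter or promoter.

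In the newborn cerebellum, granule cell precursors arise from the rhombic lip under Atoh1, spread over the surface as the external granular layer and divide there in response to Sonic hedgehog released by Purkinje cells. As they leave the cell cycle they switch on Neurod1 and then the products of the granule neuron, such as the synaptic organiser Cbln1. Purkinje cells are born earlier, from the ventricular zone, and carry Pcp2, Car8 and the calcium buffer Calb1. Of these genes Pcp2 is the closest to restricted to Purkinje cells in the brain, while Zic genes are also active in the dorsal spinal cord and hindbrain, and Calb1 in many other neurons. In tissue RNA, fewer cells of a type and less RNA per cell cannot be told apart.

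The values are log2 expression values made by the authors with RMA, so 1 unit is a doubling. Array medians ran from 5.07 to 5.12 and correlations between arrays, across probe sets, from 0.973 to 0.996. Nkx2-2, read by 1 probe set, lay between 4.24 and 4.73 in Nkx2.2-/- mice and between 6.42 and 6.88 in wild-type mice, and the log2 change was -2.05 (limma, SE 0.111, adjusted p = 7.2e-05). The sources do not place that probe set within or outside the targeted stretch. Of the regional genes, the 10 hindbrain Hox genes measured had a mean level of 6.42 to 7.42 in Nkx2.2-/- mice and 6.28 to 7.23 in wild-type mice, and the 10 forebrain genes one of 4.73 to 4.88 in Nkx2.2-/- mice and 4.71 to 5.05 in wild-type mice.

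The promoters of the 2 genes whose levels varied most between mice, Neurod1 among the granule genes and Pcp2 among the Purkinje genes, are shown because these genes carried the pattern described next. Each runs 5′ to 3′ for 300 bases, 250 before and 50 after the annotated start, from RefSeq on GRCm38.p6, at chr2:79456587-79456886 on the minus strand for Neurod1 and chr8:3625498-3625797 on the minus strand for Pcp2, whose most upstream start was used. Capitals mark matches to E-boxes, the kind of site bound by Atoh1 and related factors. They also mark AGGTCA, letters shared by the sites of nuclear receptors such as RORα, a factor that Purkinje cells need. The letters alone were searched, without the bases around them, and binding was not tested.
Neurod1: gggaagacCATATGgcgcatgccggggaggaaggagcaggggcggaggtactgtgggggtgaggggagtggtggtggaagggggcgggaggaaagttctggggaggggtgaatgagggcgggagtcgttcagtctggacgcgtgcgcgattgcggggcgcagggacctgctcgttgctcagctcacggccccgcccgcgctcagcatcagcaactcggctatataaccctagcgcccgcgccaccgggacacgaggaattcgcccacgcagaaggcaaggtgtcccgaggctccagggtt
Pcp2: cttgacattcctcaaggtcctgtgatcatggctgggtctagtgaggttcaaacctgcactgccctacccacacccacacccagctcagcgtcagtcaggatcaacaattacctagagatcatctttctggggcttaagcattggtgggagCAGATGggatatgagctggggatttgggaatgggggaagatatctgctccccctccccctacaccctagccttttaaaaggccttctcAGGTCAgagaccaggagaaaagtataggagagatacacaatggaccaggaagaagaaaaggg

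Both strands were searched in 9 windows of the 6 member genes matched in the promoter table, and no matches overlapped in the windows shown. Neurod1 had 1 match, the E-box CATATG, at position -242 from the start. Pcp2 had the E-box CAGATG at position -100 and the letters AGGTCA at position -12. Among 32817 promoter windows of the same length, 3.92% held the Neurod1 form of the E-box and 17.2% the Pcp2 form. The remaining form searched, CAGCTG, was in 16.3% and AGGTCA in 16.3%, and 33.4% held any of the 3 E-boxes. The windows of Atoh1, Zic1, Zic4 and Cbln3 held none of these letters. Zic1 and Zic4 are neighbours on chromosome 9.

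The members separated the mice rather than the genotypes. Nkx2.2-/- replicate 11 and wild-type replicates 18 and 21 had high levels, while the other 7 mice, of both genotypes, lay lower and close to each other for most genes. This was seen after the values were examined and is given as a description. In 17 of the 23 probe sets these 3 mice were the highest of the 10, against 1.70% of all probe sets. Replicate 11 was the highest Nkx2.2-/- mouse in 22 of 23 (22.5% of all probe sets), and replicate 18 the highest wild-type mouse in 19 of 23 (14.4% of all). Wild-type replicate 18 was the highest of all mice in 17 of the 23. Probe sets of 1 gene share a target and are not independent of each other.

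**Figure D1:**
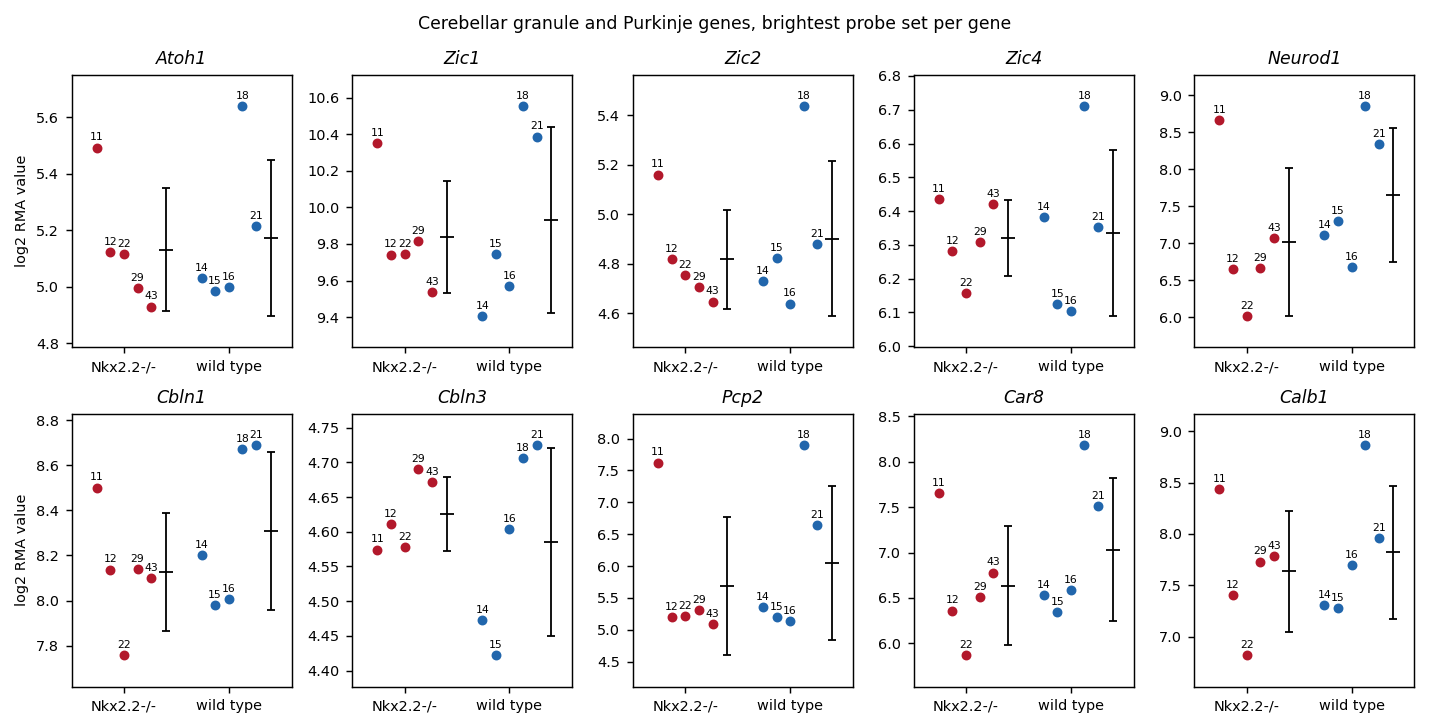
Log2 RMA value of the brightest probe set of each of the 10 genes (vertical axis, scaled per gene) in the 5 Nkx2.2-/- mice (left, red) and the 5 wild-type mice (right, blue). Points are mice with their replicate numbers and bars are mean ± SD (n = 5 each). Replicate 11 stands above its group in Pcp2, at 7.62, and replicates 18 and 21 above theirs, at 7.89 and 6.64.

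Among the factors of the granule lineage, Atoh1, the bHLH factor that specifies granule precursors, read 5.49, 5.12, 5.12, 4.99 and 4.93 in Nkx2.2-/- replicates 11, 12, 22, 29 and 43, against 5.03, 4.98, 4.998, 5.64 and 5.22 in wild-type replicates 14, 15, 16, 18 and 21. Its single probe set was near the middle of the array in brightness, at the 52.0 percentile and ranged over 0.71. Replicate 11 and replicate 18 stood apart from their groups, and the groups overlapped. The other 7 mice spanned 0.19. Neurod1, the bHLH factor of differentiating granule neurons, read 8.67, 6.65, 6.02, 6.67 and 7.06 in the Nkx2.2-/- replicates in the same order, against 7.10, 7.30, 6.68, 8.85 and 8.34 in the wild-type replicates. The same 3 mice were high. Its range of 2.84, or 7.15-fold, was the widest of the 23 probe sets, and replicate 11 was 3.03-fold above the next Nkx2.2-/- mouse. Unlike Atoh1, Neurod1 still varied among the other 7 mice, over 1.29, with Nkx2.2-/- replicate 22 lowest. Its second probe set gave the same order at the top, with 8.29 in Nkx2.2-/- replicate 11 against 8.38 and 7.80 in wild-type replicates 18 and 21.

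The Zic genes encode zinc finger factors of the dorsal neural tube and of granule precursors. Zic1 was bright on every array, at the 98.7 percentile, and read 10.35, 9.74, 9.74, 9.82 and 9.54 in Nkx2.2-/- replicates 11, 12, 22, 29 and 43, against 9.41, 9.75, 9.57, 10.55 and 10.39 in wild-type replicates 14, 15, 16, 18 and 21. Replicates 11, 18 and 21 were again the highest, and the other 7 mice spanned 0.41 at a level above most probe sets. Zic2 read 5.16, 4.82, 4.76, 4.71 and 4.65 in the Nkx2.2-/- mice, against 4.73, 4.83, 4.64, 5.44 and 4.88 in the wild-type mice. Replicates 11 and 18 stood apart here, and replicate 21 only just exceeded replicate 15. Zic4 was the flattest Zic gene, at 6.43, 6.28, 6.16, 6.31 and 6.42 in the Nkx2.2-/- mice, against 6.38, 6.13, 6.10, 6.71 and 6.35 in the wild-type mice. Only wild-type replicate 18 stood above the rest for Zic4, and replicate 21 lay within the span of the others.

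Cbln1 and Cbln3 belong to the cerebellins, a family of secreted synaptic proteins, and both are found in granule neurons. Cbln1, which bridges presynaptic neurexin and the receptor GluD2 on Purkinje cells, read 8.50, 8.14, 7.76, 8.14 and 8.10 in Nkx2.2-/- replicates 11, 12, 22, 29 and 43, against 8.20, 7.98, 8.01, 8.67 and 8.69 in wild-type replicates 14, 15, 16, 18 and 21. The 3 mice were the highest in all 3 Cbln1 probe sets, and the ranges over the 10 mice were 0.79 to 0.93. Cbln3, which is secreted together with Cbln1 and is known from cerebellar granule cells, did not follow them. It read 4.57, 4.61, 4.58, 4.69 and 4.67 in the Nkx2.2-/- mice, against 4.47, 4.42, 4.60, 4.71 and 4.72 in the wild-type mice. Both its probe sets were dim, at the 27.7 and 24.9 percentiles, and varied by 0.30 and 0.28 over all mice, with replicate 11 lowest of its group in the first and highest in the second. The values come with no detection call, so whether Cbln3 was above background is unknown.

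Among the Purkinje genes, Pcp2 set the 3 mice apart most clearly. Pcp2, a modulator of G protein signalling also called L7, read 7.62, 5.20, 5.21, 5.30 and 5.09 in Nkx2.2-/- replicates 11, 12, 22, 29 and 43, against 5.36, 5.19, 5.13, 7.89 and 6.64 in wild-type replicates 14, 15, 16, 18 and 21. Replicate 11 was 4.99-fold above the next Nkx2.2-/- mouse, and replicate 18 was 2.38-fold above replicate 21. The other 7 mice lay within 0.26 of each other, the flattest background of any member that varied by more than 1 log2 unit apart from the second Pcp2 probe set. That probe set read 6.21 in replicate 11 and 4.96 to 5.13 in the other Nkx2.2-/- mice, against 6.73 and 5.85 in wild-type replicates 18 and 21 and 4.99 to 5.11 in the others. The third Pcp2 probe set was dim, at the 15.4 percentile, and varied by 0.32.

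Car8, a carbonic anhydrase-related protein that binds the IP3 receptor and has no enzyme activity, read 7.65, 6.36, 5.87, 6.51 and 6.78 in the Nkx2.2-/- replicates in the same order, against 6.53, 6.34, 6.58, 8.18 and 7.51 in the wild-type replicates. Its 3 probe sets all had replicates 11, 18 and 21 at the top, and in the dimmest of them the other 7 mice spanned 0.06 around values of 4.87 to 4.94. Calb1 read 8.43, 7.40, 6.82, 7.73 and 7.79 in the Nkx2.2-/- mice, against 7.31, 7.28, 7.70, 8.86 and 7.96 in the wild-type mice. The other 7 mice ranged over 0.97 for Calb1, against 0.26 for Pcp2, and Nkx2.2-/- replicate 22 was lowest. The dimmer Calb1 probe sets ranged over 0.30 to 0.82.

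**Figure D2:**
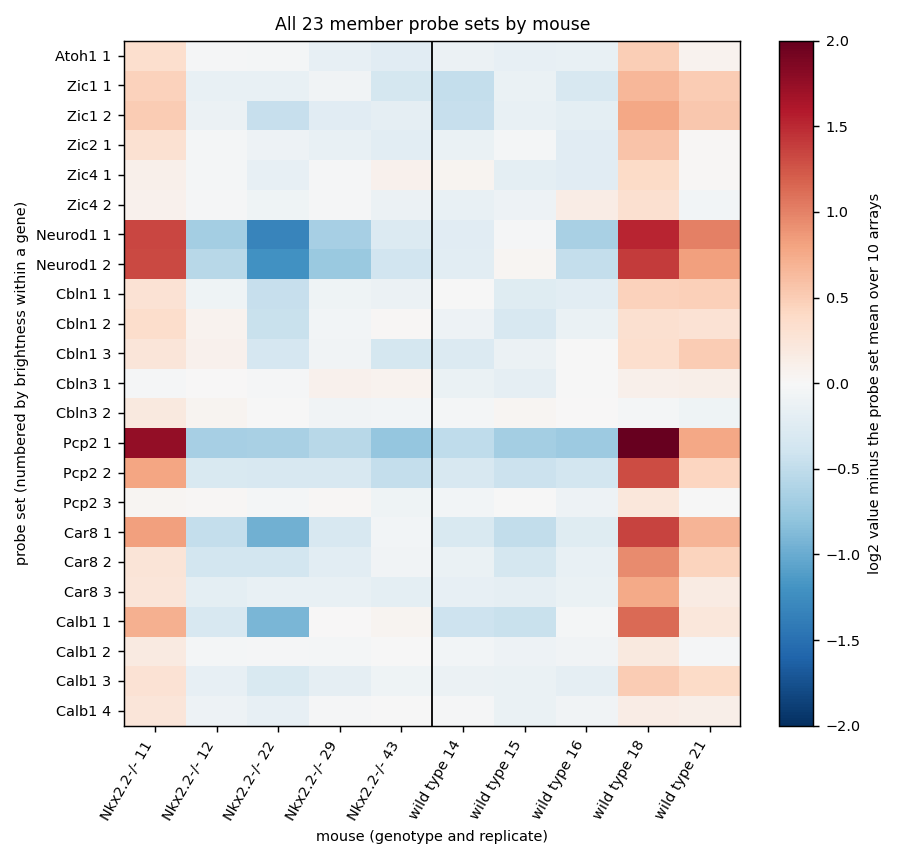
Log2 value of each of the 23 probe sets (rows, numbered by brightness within a gene) minus its mean over the 10 arrays, for each mouse (columns, Nkx2.2-/- left of the black line and wild type right). Replicates 11, 18 and 21 are red in most rows, and both Cbln3 rows are nearly white, with ranges of 0.30 and 0.28.

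Against this spread, no member passed the test between genotypes. Of the 23 probe sets 0 passed the test over all probe sets (limma, Benjamini-Hochberg adjusted p under 0.05), in which 0.0511% of all probe sets passed, all of them lower in Nkx2.2-/- mice. At an unadjusted p under 0.05 the count was also 0 of 23, against 3.43% of all probe sets, and unadjusted p ran from 0.214 to 0.896. In 0 of 23 were the groups free of overlap, against 0.757% of all. In sign, 20 were lower and 3 higher in Nkx2.2-/- mice, with a median log2 change of -0.18, beside 22180 lower and 22857 higher of all probe sets with a median of 0.0010. Intervals were wide for the variable genes. For Pcp2, which averaged 5.69 ± 1.09 in Nkx2.2-/- mice and 6.04 ± 1.20 in wild-type mice (SD, n = 5 each), the 95% interval of the log2 change ran from -1.74 to 1.02.

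The largest change in size was that of Neurod1, which averaged 7.01 ± 0.998 in Nkx2.2-/- mice and 7.66 ± 0.906 in wild-type mice (SD, n = 5 each); its log2 change was -0.64, with an SE of 0.519 and an adjusted p of 0.9997 by limma. Car8 had a log2 change of -0.39 (SE 0.396) and Calb1 one of -0.19 (SE 0.339). Cbln1 was at -0.18 (SE 0.171), with the other Cbln1 probe sets at -0.02 and -0.18. The brightest probe sets of Atoh1, Zic1, Zic2 and Zic4 had log2 changes between -0.09 and -0.01, the second Zic1 probe set one of -0.20 (SE 0.249), and Cbln3 one of 0.04 with a 95% interval of -0.10 to 0.18. The adjusted p of limma was 0.9997 for each of the 23. For Zic4, with an SE of 0.108, the 95% interval ran from -0.25 to 0.22.

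**Figure D3:**
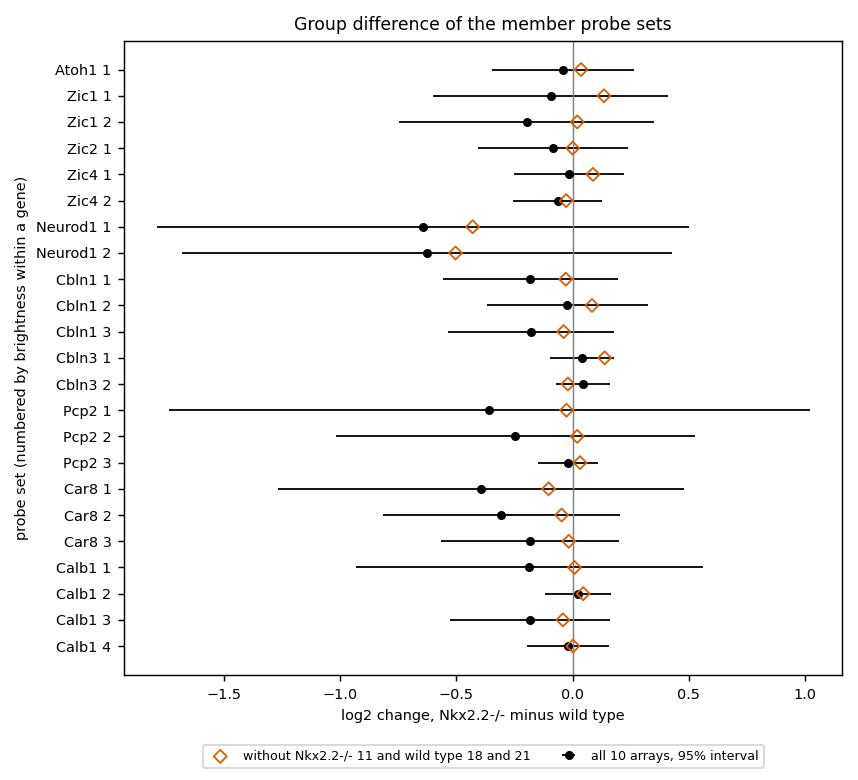
Log2 change, Nkx2.2-/- minus wild type (horizontal axis), of the 23 probe sets. Black points with bars are all 10 arrays with 95% intervals from limma, and open diamonds are the values without Nkx2.2-/- replicate 11 and wild-type replicates 18 and 21; every interval includes 0, and the Pcp2 value moves to -0.03.

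The sign of the difference turned for some members when single mice were left out, while the brightest probe sets of Neurod1, Car8 and Cbln1 were lower without any 1 mouse. The second Cbln1 probe set turned to 0.08 without Nkx2.2-/- replicate 22. Without wild-type replicate 18, 9 probe sets were lower and 14 higher in Nkx2.2-/- mice, with a median log2 change of 0.03, and Pcp2 was at 0.10. Without Nkx2.2-/- replicate 11 the median was -0.26, Pcp2 was at -0.84 and Neurod1 at -1.06 (SE 0.423, limma adjusted p = 0.99997), and 2 probe sets, both of Neurod1, were lower at an unadjusted p under 0.05, as were 2.2% of all probe sets. Without both of these the median was -0.10 and Neurod1 was at -0.76 (SE 0.345). The second Neurod1 probe set, also at -0.76 (SE 0.279, limma adjusted p = 0.99999), was the only member with an unadjusted p under 0.05. Of all 45037 probe sets, 744 were lower and 318 higher at that level in this fit. Without Nkx2.2-/- replicate 22, which was low in several members, the median was -0.07, and Calb1 and Zic4 were at 0.019 and 0.026. Without wild-type replicate 21 the median was -0.09 and Zic1 was at 0.019. Without replicate 11 and replicates 18 and 21, a choice made after seeing the data that leaves 4 Nkx2.2-/- and 3 wild-type mice, 11 were lower and 12 higher and the median was 0.0007. The Neurod1 value was then -0.43, and its second probe set, at -0.50 (SE 0.204, limma adjusted p = 0.9998), was 1 of 2 members with an unadjusted p under 0.05, beside Cbln3 at 0.14. Of all probe sets 2.39% were at that level. No member passed the adjusted threshold in any of these fits.

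Other markers of the cerebellum and its neighbours were read from lists of genes, 116 of 132 of which were measured, with the brightest probe set for each gene. None of the 116 passed the test in either direction (limma). Of 21 further granule cell and rhombic lip genes, 16 were lower and 5 higher in sign, 0 with an unadjusted p under 0.05, and the median log2 change was -0.03, beside -0.0042 over all 18193 genes. Replicates 11, 18 and 21 were the highest of all mice in 8 of the 21, against 2.06% of all genes. Zic5, the neighbour of Zic2, read 6.96, 5.99, 5.66, 5.96 and 5.84 in Nkx2.2-/- replicates 11, 12, 22, 29 and 43, against 5.81, 6.22, 5.73, 7.43 and 6.74 in wild-type replicates 14, 15, 16, 18 and 21. Lhx9, a LIM homeodomain factor, had a log2 change of -0.19 (SE 0.110), Lhx2 one of -0.13 and Fat2, a cadherin of granule cells, one of -0.08.

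The pattern of Pcp2 was rare among other Purkinje genes. Of 15 measured, 9 were lower and 6 higher in sign, with a median of -0.0064, and the 3 mice were the highest in 1 of 15. The list mean, centred over the mice, was 0.01 in Nkx2.2-/- replicate 11, against 0.08 and 0.10 in wild-type replicates 18 and 21. Foxp2, a transcription factor also found in other hindbrain neurons, had a log2 change of -0.19 (SE 0.132), Pvalb one of -0.26, Ebf2 one of 0.15 and Aldoc one of 0.11. Pvalb read 7.01 in wild-type replicate 15, against 5.79 to 6.00 in the other wild-type mice and 5.68 to 6.05 in Nkx2.2-/- mice. Of 5 genes of other cerebellar cells 4 were lower and 1 higher, and the 3 mice were the highest in 2, Gdf10 and Ptf1a. Gdf10, a marker of Bergmann glia, read 7.82 in Nkx2.2-/- replicate 11 and 6.73 to 7.20 in the other Nkx2.2-/- mice, against 8.32 and 7.81 in wild-type replicates 18 and 21 and 6.51 to 6.72 in the others. Ptf1a, the factor that specifies cerebellar inhibitory neurons, read 5.11 in replicate 11, against 5.17 and 4.75 in replicates 18 and 21, and had a log2 change of -0.08, as did Tfap2b. Neurog1 was at 0.02. In Tfap2b the highest mouse was wild-type replicate 14, at 7.88, and in Neurog1 Nkx2.2-/- replicate 11 read 5.01, against 4.83 and 4.74 in wild-type replicates 18 and 21 and 4.92 in wild-type replicate 16.

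Genes of tissue next to the cerebellum followed the same mice in part. Of 6 choroid plexus genes, which mark the epithelium of the ventricle roof, the 3 mice were the highest in 5. Ttr, its main secreted protein, read 12.73, 11.97, 7.08, 8.82 and 11.56 in Nkx2.2-/- replicates 11, 12, 22, 29 and 43, against 9.32, 10.86, 11.97, 12.60 and 12.57 in wild-type replicates 14, 15, 16, 18 and 21. Unlike Pcp2, Ttr was also high in replicates 12, 43 and 16. Folr1, Kcne2 and Aqp1 had log2 changes of -0.38, -0.35 and -0.25, none past the threshold. Of 6 midbrain and isthmus genes 5 were lower in sign, and the 3 mice were the highest in 2 of 6. En2, a homeobox gene of the midbrain and cerebellum, averaged 5.11 ± 0.837 in Nkx2.2-/- mice and 5.80 ± 0.636 in wild-type mice (SD, n = 5 each). Its log2 change was -0.69, with an SE of 0.406 and an adjusted p of 0.9997 by limma. Its highest values were 6.57 in replicate 11, against 6.73 and 6.09 in replicates 18 and 21. En1 had a log2 change of -0.27, Pax7 one of -0.15 and Pax5 one of 0.04. These did not share the order: wild-type replicate 14 exceeded replicate 21 in En1 (5.21 and 5.13) and was the highest wild-type mouse in Pax7, and replicates 18 and 21 were the lowest wild-type mice in Pax5. The forebrain list showed no such order, with the 3 mice highest in 0 of 10 genes, and Six3 at -0.23, Dlx5 at -0.06, Fezf2 at -0.07 and Lhx6 at -0.06. Six3 read 5.74 in wild-type replicate 15, against 4.79 to 4.91 in the other wild-type mice and 4.70 to 4.92 in Nkx2.2-/- mice.

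Hindbrain Hox genes, which lie caudal to the cerebellum, ran the other way in 2 of the 3 mice. All 10 measured were lowest of their group in Nkx2.2-/- replicate 11, and 9 of 10 in wild-type replicate 18, but 0 of 10 in wild-type replicate 21. The share of all genes lowest in these mice is not given here, so these counts have no background beside them. Hoxa5 read 7.23, 8.69, 8.38, 9.20 and 8.87 in Nkx2.2-/- replicates 11, 12, 22, 29 and 43, against 8.61, 8.42, 8.66, 6.67 and 8.99 in wild-type replicates 14, 15, 16, 18 and 21. Replicate 21 thus combined high cerebellar genes with ordinary Hox levels. In the comparison of genotypes 7 of the 10 were higher and 3 lower in sign, with Hoxc4 at 0.29, Hoxa5 at 0.20, Hoxd3 at 0.14 and Hoxb2 at 0.10. Of 12 spinal Hox genes 11 were higher in sign, beside 8556 of all 18193 genes, and 2 were higher at an unadjusted p under 0.05, as were 0.682% of all genes. The 4 with the lowest p were Hoxc8 at 1.33 (SE 0.452, limma adjusted p = 0.9997), Hoxd8 at 0.32, Hoxb9 at 0.39 and Hoxa7 at 0.21. Hoxc8 read 4.72, 4.82, 7.22, 6.96 and 6.17 in Nkx2.2-/- replicates 11, 12, 22, 29 and 43, against 4.53 to 4.84 in wild-type mice. The centred mean of the spinal list was 0.30 in Nkx2.2-/- replicates 22 and 29 and 0.06 in replicate 43. It was -0.07 and -0.03 in Nkx2.2-/- replicates 11 and 12, against -0.16 to -0.05 in wild-type mice. With the spinal Hox mean of each array as a covariate, all 10 member genes changed sign in their brightest probe set. Pcp2 was then at 0.35 (SE 0.839) and Neurod1 at 0.20 (SE 0.638; limma adjusted p = 0.997 for both). Of the 23 probe sets, 17 were higher and 6 lower in sign. The spinal Hox mean was itself highest in Nkx2.2-/- replicates 22 and 29, so its part and that of genotype cannot be told apart.

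**Figure D4:**
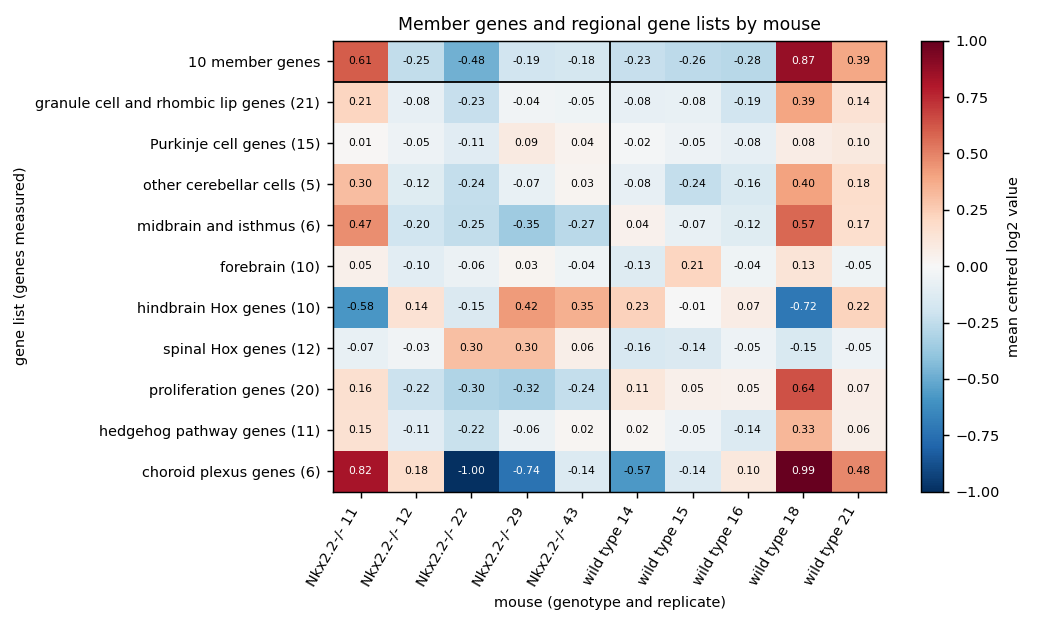
Mean over the genes of a list of the log2 value minus each gene's mean over the 10 arrays, for each mouse (columns, Nkx2.2-/- left of the black line and wild type right). The top row is the 10 members, at 0.61 in replicate 11 against 0.87 and 0.39 in replicates 18 and 21; the hindbrain Hox row is negative in replicates 11 and 18 (-0.58 and -0.72) and positive in replicate 21 (0.22).

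Genes of dividing cells were lower in sign in Nkx2.2-/- mice in 20 of 20, beside 9637 of all 18193 genes. Of the 20, 12 were lower at an unadjusted p under 0.05, as were 3.01% of all genes, and 0 passed the threshold. The highest mouse of its group was replicate 11 in 18 of the 20 among Nkx2.2-/- mice and replicate 18 in 18 of 20 among wild-type mice, as for the members. Replicate 21 was not high: the centred mean of the list was 0.16 in replicate 11, against 0.64 in replicate 18 and 0.07 in replicate 21. Among them Cdk1, the mitotic kinase, was at -0.62, Top2a, a topoisomerase, at -0.61, Birc5 at -0.56 and the cyclin Ccnb2 at -0.48. Of 11 genes of the hedgehog pathway, which drives granule precursors to divide, 9 were lower and 2 higher, and the 3 mice were the highest in 4 of 11, among them Ccnd2 and Boc but not Ccnd1 or Smo. Ccnd2, a cyclin of granule precursors, read 7.91, 7.04, 7.12, 7.30 and 7.24 in Nkx2.2-/- replicates 11, 12, 22, 29 and 43, against 7.26, 7.72, 7.16, 8.52 and 7.73 in wild-type replicates 14, 15, 16, 18 and 21. Its log2 change was -0.36 (SE 0.247), and those of Ccnd1, Smo and Boc were -0.16, -0.12 and -0.11. The part of the high cerebellar genes in the values of these lists was not tested.

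The genes whose pattern over the 10 mice was most like that of Neurod1 and Pcp2 were found among 18183 other genes by the root mean square difference of centred log2 values. A gene with no variation would differ by 0.911 from Neurod1 and by 1.04 from Pcp2. Nearest to Neurod1 were Otx2, at 0.320, Ecrg4, at 0.350, Eomes, at 0.358, En2, at 0.374, and Zic5, at 0.413. Nearest to Pcp2 were Ecrg4, at 0.396, Eomes, at 0.439, Otx2, at 0.452, En2, at 0.476, and Kcne2, at 0.487. Between the members themselves, Car8 differed from Neurod1 by 0.335 and Pcp2 by 0.411. The other members lay farther from Neurod1, at 0.509 for Calb1, 0.629 for Zic1, 0.654 for Cbln1 and 0.726 for Zic2. Atoh1 was at 0.745, Zic4 at 0.795 and Cbln3 at 0.891, close to the 0.911 of a gene with no variation. Otx2 is known from granule precursors of the posterior cerebellum and from choroid plexus, Eomes from unipolar brush cells, which also come from the rhombic lip, and Ecrg4 and Kcne2 from choroid plexus. Eomes read 6.59, 5.23, 4.87, 5.06 and 5.31 in Nkx2.2-/- replicates 11, 12, 22, 29 and 43, against 5.31, 5.18, 5.15, 6.83 and 5.93 in wild-type replicates 14, 15, 16, 18 and 21. In the order of likeness to Neurod1, Atoh1 would stand at rank 124, Zic4 at rank 269 and Cbln3 at rank 4026. The measure counts the size of the variation as well as its shape. A gene of small range therefore ranks far down even where the same mice are highest, as in Atoh1.

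**Figure D5:**
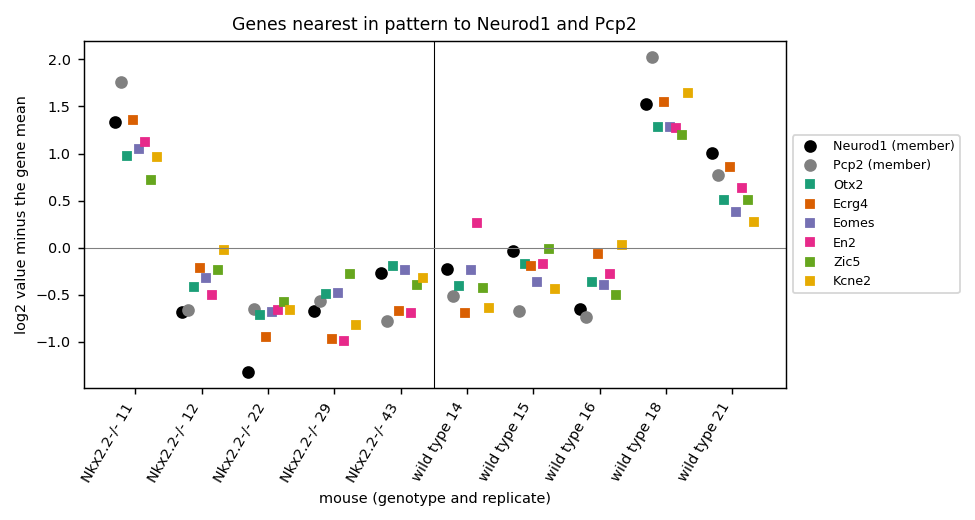
Log2 value minus the gene's mean over the 10 arrays (vertical axis) for Neurod1 and Pcp2 (circles) and the 6 genes nearest to them in pattern (squares), for each mouse (Nkx2.2-/- left of the black line and wild type right). All 8 genes are above 0 in replicates 11, 18 and 21; beyond these mice, En2 is above 0 in wild-type replicate 14 and Kcne2 in wild-type replicate 16.

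Of the RNA quality signs at hand, the arrays with high members were not those of poor 5 prime signal. The 3 prime minus 5 prime difference of the Gapdh control probe sets was 3.78 in Nkx2.2-/- replicate 43 and 2.13 in wild-type replicate 14, against -0.32 to 0.13 on the other 8 arrays, replicates 11, 18 and 21 among them. Without replicates 43 and 14 the median log2 change of the members was -0.20, with 21 lower and 2 higher in sign and 0 past the threshold.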

How the data were processed

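Expression was measured in 10 mice, 5 Nkx2.2-/- and 5 wild type, with 1 array each and groups from the sample titles. The deposited values are log2 expression values made by the authors with RMA, per the submitters' processing notes; neither its version nor a genome build is given in the sources used here. The values come with no detection call. The number of arrays limits the precision. Nothing in the labels ties mice to litters or batches, so the p-values reflect spread between these animals alone.

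After removal of 64 control probe sets from 45101, the other 45037 were fitted without a filter on low values. Of these, 34945 had 1 gene symbol in the platform annotation, 932 several and 9160 were unnamed here. The genotypes entered a two-sided moderated test (limma 3.58.1, lmFit then eBayes, in R 4.3.3) with Benjamini-Hochberg adjustment over all 45037 at 0.05, with wild type subtracted from Nkx2.2-/-. Intervals are 95% intervals from that fit. The fit was tested on simulated data. Gene lists and nearest genes used the brightest of a gene's probe sets (18193 genes). Named were all members, Nkx2-2, up to 4 genes of each list by lowest p, and the 5 genes nearest to each of 2 members; Gdf10, Ptf1a, Ttr, Zic5, Ccnd2 and Eomes among them were chosen for per-mouse values after these were seen. Members and lists were chosen with earlier results of these data known. Of the 132 listed genes, 16 were not analysed here. RefSeq gene and promoter tables of GRCm38.p6 gave neighbours and sequences; 6 of 10 members had a promoter there. Alternatives were renormalization, filters, priors, weights, a Hox covariate, and arrays left out. Values were summarised in pandas 2.3.3 (Python 3.11.15) and drawn in matplotlib 3.10.9.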

Additional observations from a re-analysis of the deposited data

Results flagged for a closer look

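In groups of 5, a single mouse stood apart from the others by Dixon's criterion in 5 of 46 tests. Here the gap to the next mouse is set against the range of the group. Chance alone flags about 1 group in 20 when groups are independent. These tests are not independent, since they reuse the same mice and several probe sets of 1 gene, so that rate is no benchmark for the count. They also read the same values in which replicate 11 was seen to be high. Of these 5, 4 were Nkx2.2-/- replicate 11 as the highest of its group. Its gap was 0.916 of the range in the brightest Pcp2 probe set and 0.862 in the second, 0.862 in the dimmest Car8 probe set and 0.859 in a dim Calb1 probe set. The other was wild-type replicate 18 in that same Calb1 probe set, with a gap of 0.757 of the range. With wild-type replicate 21 also high, replicate 18 did not stand alone in Pcp2.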

How the results depend on the processing

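No paired analysis was possible because the groups share no replicate number. No member passed the threshold in any of the alternatives run. Of all probe sets, 23 passed in the main setting and 18 to 23 without any 1 array; 11 passed with 1 probe set per gene, 9 with the spinal Hox mean as a covariate, and 1545 at an unadjusted p under 0.05. The median log2 change of the members was between -0.26 and 0.03 without any 1 array, and 0.09 with the Hox covariate. Without any 1 array, Pcp2 was between -0.84 and 0.10, Neurod1 between -1.06 and -0.34, Car8 between -0.65 and -0.11, Calb1 between -0.39 and 0.075, Cbln1 between -0.28 and -0.09, Cbln3 between -0.0016 and 0.074, Atoh1 between -0.13 and 0.074, Zic1 between -0.23 and 0.061, Zic2 between -0.17 and 0.049 and Zic4 between -0.072 and 0.079. These ranges, and the turns below, are of each gene's brightest probe set. Leaving out wild-type replicate 18 turned the sign of 6 of the 10 genes. Without Nkx2.2-/- replicate 22 Calb1 (0.019) and Zic4 (0.026) turned, without Nkx2.2-/- replicate 43 Atoh1 (0.0079), without wild-type replicate 15 Cbln3 (-0.0016) and without wild-type replicate 21 Zic1 (0.019). With the Hox covariate all 10 turned: Calb1 to 0.22, Pcp2 to 0.35, Zic2 to 0.10, Cbln1 to 0.024, Zic1 to 0.021, Neurod1 to 0.20, Car8 to 0.11, Atoh1 to 0.11, Zic4 to 0.11 and Cbln3 to -0.0030. Without Nkx2.2-/- replicate 11 and wild-type replicates 18 and 21, chosen after seeing the data, 5 turned: Calb1 to 0.0085, Zic2 to 0.00069, Zic1 to 0.14, Atoh1 to 0.037 and Zic4 to 0.088. Zic4 also turned with a repeated quantile normalization (0.013) and without replicates 18 and 11 (0.051), and Cbln3 without replicates 14 and 43 (-0.00050). The cause of these turns was not tested. The lowest adjusted p of any member probe set was 0.751, with array weights. With no detection call, signal over background is unknown for each probe set.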
